A study of Mus musculus with 9 samples.

Results

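The Sox transcription factors were examined in mouse embryonic stem cells (ESCs) that stably expressed Foxj3 or Zbtb18. The members were taken by gene name, with earlier results of these data known. They are the 10 genes Sox1, Sox2, Sox3, Sox4, Sox9, Sox11, Sox12, Sox13, Sox15 and Sox21 among the 44788 genes of the expression table. The table holds 10 further Sox genes, which are given apart. Total RNA was sequenced from J1 cells, mouse ESCs kept undifferentiated without feeder cells or serum and with LIF, a cytokine that holds ESCs in the undifferentiated state. The 3 groups were control ESCs labelled wild type, Foxj3-ES and Zbtb18-ES, with 3 libraries each. Foxj3-ES and Zbtb18-ES carried the coding sequence of Foxj3, a forkhead factor, or of Zbtb18, a zinc finger repressor, from a lentivirus with puromycin resistance, and the sources used here do not say whether a line is a single clone. The controls are labelled wild type only, so an effect of the virus or of selection cannot be told apart from that of the factor. Whether the libraries within a group stem from separate cultures is not stated in the labels, and the p-values therefore cover no more than the spread between these samples.

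Sox factors share a DNA-binding HMG box, through which they bend DNA, and most act together with a partner factor on neighbouring sites. Sox2 pairs with Oct4, the product of Pou5f1, on genes of the pluripotent cell, whereas Sox1, Sox2 and Sox3, the SoxB1 group, keep neural progenitors undifferentiated in the embryo. Sox21 of the SoxB2 group is known to counteract SoxB1 activity. Sox4, Sox11 and Sox12 form the SoxC group, known for roles in early neurons and mesenchyme, Sox13 belongs to the SoxD group, which lacks an activation domain of its own, Sox9 of the SoxE group directs cartilage and testis formation, and Sox15 of the SoxG group is known from mouse ESCs and muscle precursors.

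Values are UQRPKM, that is, reads per length of the gene scaled by the upper quartile of the library, so levels of different genes can be set side by side within a library. A gene was called at an adjusted p under 0.05 from limma, fitted to log2(UQRPKM + 1) of the 22268 genes that reached a value of 1 in 3 or more of the 9 libraries. Fold changes on this scale understate the changes of genes with low values. This filter was passed by 9 of the members, but not by Sox9.

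The libraries of a group correlated with r of 0.954 to 0.977 across genes. A scale factor relative to Control replicate 1 was read from the commonest ratio of low values between libraries. It ran from 0.701 in Foxj3-ES replicate 1 to 1.09 in Zbtb18-ES replicate 2. This factor reflects the upper quartile by which the values were divided and is not a measure of total reads. Control replicate 2 stood apart by the GC content of its genes. Each log2 value was taken as a deviation from the mean of that gene over all 9 libraries, Control replicate 2 included. In Control replicate 2 the deviations of genes of high GC content exceeded those of genes of low GC content by 0.98. The same gap was 0.06 and 0.10 for the other controls. It ran from -0.28 to 0.21 across the Foxj3-ES libraries, while those of Zbtb18-ES held -0.53 to -0.15. A gap near 0 therefore means close to the shared mean, and the gaps are not differences in level within a library. The 6 ESC markers were present in every library but did not move one way. Pou5f1 and Dppa5a made up most of their sum, which was 31831 to 37641 in control, 38246 to 42354 in Foxj3-ES, and 44033 to 60899 in the Zbtb18-ES libraries. Nanog fell in both lines, Esrrb fell in Foxj3-ES, and Dppa5a rose in Zbtb18-ES. The 6 fibroblast markers summed to 3.06 to 21.0 and the 8 neuroectoderm markers to 7.58 to 21.8 over all libraries, with Lum and Fabp7 at 0 throughout. The 6 primitive endoderm markers summed to 17.9 to 23.7 in control, with sums of 12.2 to 19.5 for the Foxj3-ES libraries and of 22.2 to 29.8 for those of Zbtb18-ES. Of 4 tested, 1 was called: Hnf4a, a nuclear receptor of endoderm and liver, rose in Zbtb18-ES (mean 15.3 against 1.59 UQRPKM, log2 fold change 2.70, adjusted p = 0.00484), while Foxa2, below the filter, was at 0 there. The 6 neural crest markers summed to 239.9 to 322 in control, where Pax3 was at 0, while Foxj3-ES libraries held 106 to 138 and those of Zbtb18-ES 146 to 188. Most of this sum was Ngfr, which fell in both lines, and Foxd3, which ESCs also express and which fell in Foxj3-ES; the other 3 tested markers passed in neither line, and Snai2 had means of 4.56 in control, 7.52 in Foxj3-ES and 10.9 in Zbtb18-ES. The part of these markers in the Sox differences was not tested.

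The promoters of 3 members are shown because these genes carry the results below: Sox12 passed the test in both lines, Sox2 had the highest level, and Sox1 had the largest fold change of the tested members. The sequences are from RefSeq on GRCm38.p6, read 5′ to 3′ on the strand of the gene, with 250 bases before the start of transcription and 50 from it on. The starts used differ from the gene coordinates given below, which come from GENCODE. Most of the Sox1 window lies inside the gene as given there, and the Sox2 window ends before that gene begins. Sox12 lies at chr2:152397997-152398296 (minus strand), Sox2 at chr3:34649745-34650044 (plus strand) and Sox1 at chr8:12395269-12395568 (plus strand), and capitals mark the motif matches.
Sox12: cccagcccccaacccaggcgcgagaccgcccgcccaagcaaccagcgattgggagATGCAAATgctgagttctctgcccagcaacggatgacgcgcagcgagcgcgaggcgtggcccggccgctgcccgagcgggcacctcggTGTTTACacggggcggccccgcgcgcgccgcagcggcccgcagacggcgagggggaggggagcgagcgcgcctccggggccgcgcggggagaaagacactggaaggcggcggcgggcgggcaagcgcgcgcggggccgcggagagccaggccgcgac
Sox2: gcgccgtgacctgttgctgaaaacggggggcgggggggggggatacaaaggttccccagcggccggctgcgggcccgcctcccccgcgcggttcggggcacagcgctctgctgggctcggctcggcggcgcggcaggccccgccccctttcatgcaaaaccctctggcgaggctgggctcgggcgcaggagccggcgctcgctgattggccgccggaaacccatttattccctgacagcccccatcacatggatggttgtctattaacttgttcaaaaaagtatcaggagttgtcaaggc
Sox1: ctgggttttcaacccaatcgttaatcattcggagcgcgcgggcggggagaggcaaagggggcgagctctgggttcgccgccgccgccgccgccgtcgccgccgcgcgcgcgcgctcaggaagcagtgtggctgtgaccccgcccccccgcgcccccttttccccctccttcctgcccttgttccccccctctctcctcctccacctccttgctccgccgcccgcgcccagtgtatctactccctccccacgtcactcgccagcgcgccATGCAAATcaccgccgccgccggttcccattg
In all, 4 motifs were searched on both strands. The forkhead core was spelled GTAAACA. The E-box form that Zbtb18 is known to bind was spelled CATCTG and is a form of the general E-box. AACAAT was taken as the core bound by Sox factors. The octamer of Oct4 and other POU factors was spelled ATGCAAAT. RefSeq promoters were found for 8 of the members, not for Sox3 and Sox9. The Sox12 promoter held the octamer at bases 56 to 63 and, on the opposite strand, the forkhead core at bases 144 to 150. The octamer also stood at bases 269 to 276 of the Sox1 sequence, after the start of transcription used, and none of the 4 motifs was found in the other 6. Of 32817 promoters of the same length, 3.65% held the forkhead core, 17.2% CATCTG, 10.7% the Sox core and 1.74% the octamer. These promoters were rich in G and C: 76.7% of the bases in Sox12, 73.3% in Sox13, 70.7% in Sox1, 66.3% in Sox2 and 65.7% in Sox21, compared with a median of 52.7% over all promoters. Sox11 at 58.7% and Sox15 at 56.0% lay nearer the median, and Sox4 at 52.0% lay just under it. A match describes these letters only, and binding was not measured.

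Sox2 and Sox15 made up most of the summed level of these members. Together they held 83.0 to 92.0% of the summed UQRPKM of the 10 members in the 9 libraries, and Sox2 alone held 49.6 to 62.5%. Sox2, Sox15, Sox13 and Sox12 took ranks 1 to 4, in that order, in each of the 9 libraries, and Sox9 ranked last in each. Within a group, the libraries of Sox2 did not overlap those of Sox15, nor did those of Sox15 overlap those of Sox13. Sox13 and Sox12 overlapped in control and in Foxj3-ES, although Sox13 was the higher of the pair within every library. Sox4, Sox1 and Sox11 overlapped in control, whereas Sox1 was at rank 8 in all Zbtb18-ES libraries and at rank 9 in Foxj3-ES replicates 2 and 3. The sum over the members was 2867 to 3592 in control, 1918 to 2376 in Foxj3-ES, and 2174 to 2363 for the Zbtb18-ES line, so the lines lay below every control.

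**Figure D1:**
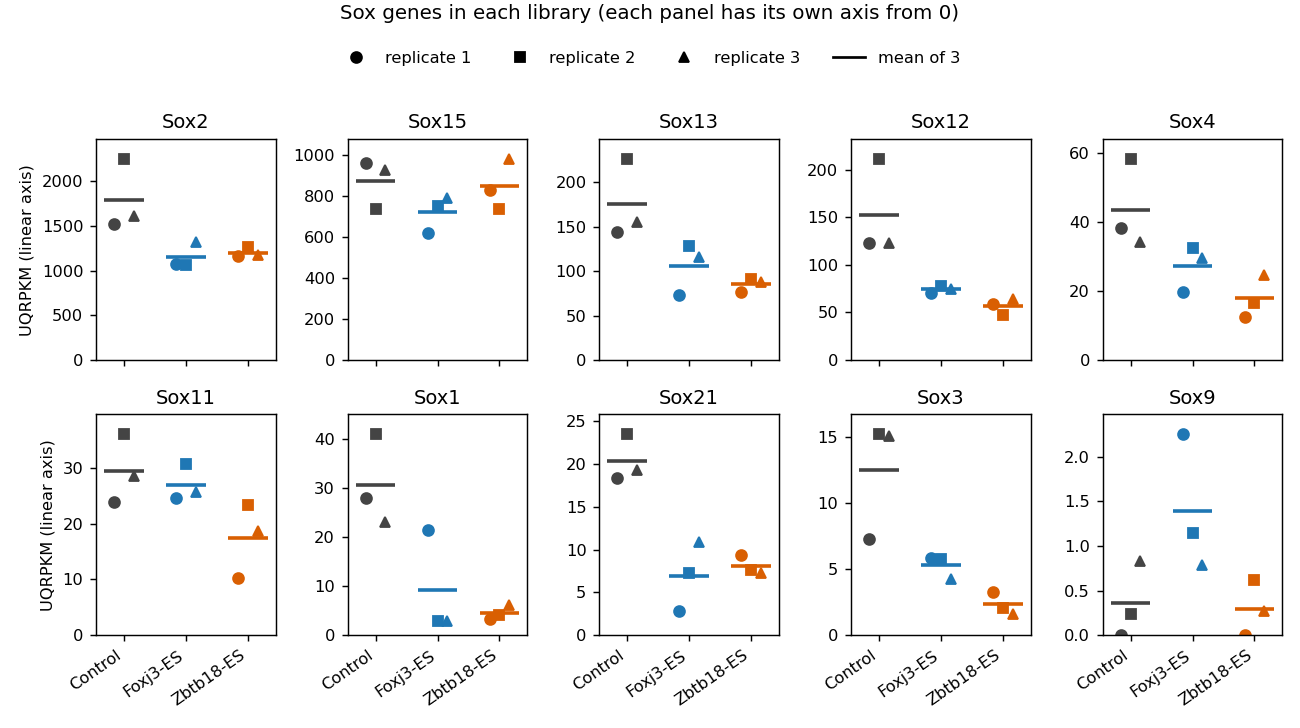
UQRPKM (linear axis from 0, scaled per panel) of the 10 Sox genes in control, Foxj3-ES and Zbtb18-ES, with a symbol for each replicate and a line at the mean of 3 libraries. Control replicate 2 is the highest of all 9 libraries for 8 members, the exceptions being Sox15 and Sox9, and Sox1 in Foxj3-ES replicate 1 stands at 21.5 while the other Foxj3-ES libraries are at 2.95 and 2.96.

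Compared with control, Sox1 and Sox12 fell in both lines, and further members fell in one line or the other. In Foxj3-ES, 4 of the 9 tested members fell (Sox1, Sox2, Sox12 and Sox21), against 7.01% of all 22268 tested genes that fell, and 5 fell in Zbtb18-ES (Sox1, Sox3, Sox4, Sox12 and Sox13), against 6.50%. No tested member rose in either line. The median log2 fold change of the 9 members was -0.73 for Foxj3-ES and -1.23 for Zbtb18-ES, while over all tested genes it was -0.03 and -0.02. Over tested genes typed as mRNA it was -0.10 in each line. Every Foxj3-ES library lay below every control for 7 of the 9 (18.5% of all tested genes), and every Zbtb18-ES library did so for 8 of the 9 (20.0%). Both comparisons use the same 3 controls. The members were chosen with earlier results of these data known, so these counts and medians describe the chosen genes only. In these bulk samples, fewer cells that express a gene and less RNA per cell cannot be told apart.

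Most calls did not hold when a single library was left out. Leaving out a library also leaves fewer samples behind the spread, so a lost call need not mean a changed fold change. For Sox1 in Zbtb18-ES the value stayed between -2.72 and -2.30, while the call was lost without any 1 control or Zbtb18-ES library. Without Control replicate 3, Sox12 alone passed in each line, and without Foxj3-ES replicate 1 or 2 a single member passed in that line (Sox1 or Sox12). Without Control replicate 1 the counts were 2 and 3 (Foxj3-ES, then Zbtb18-ES), and without Zbtb18-ES replicate 1, 2 or 3 the Zbtb18-ES count was 2, 3 or 3. Control replicate 2 was the highest control for 8 of the 10 members and for 47.3% of the tested genes, and the members stood there at a median of 1.40 times the mean of the other controls. Without Control replicate 2, only Sox12 passed in Foxj3-ES, and only Sox3 and Sox12 passed in Zbtb18-ES, with member medians of -0.53 and -1.03. Transcripts of 9 of the 10 members have a GC content above the mRNA median of 48.7%. When each library was corrected for the GC content and length of its genes (the GC correction), the member medians became -0.52 and -0.78 (Foxj3-ES, then Zbtb18-ES), with Sox2 and Sox21 called in Foxj3-ES and Sox2, Sox4 and Sox12 in Zbtb18-ES. The part of GC content in the differences was not tested beyond the GC correction.

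**Figure D2:**
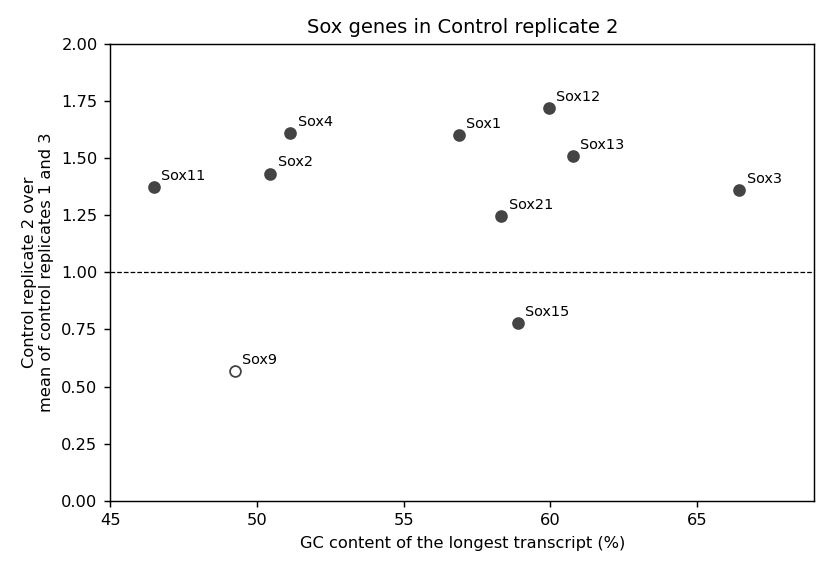
UQRPKM in Control replicate 2 divided by the mean of Control replicates 1 and 3 (y axis, dashed line at 1) against the GC content of the longest transcript in percent (x axis), with 1 point for each Sox gene and Sox9, which did not pass the filter, as an open point. The ratio is above 1 for 8 genes, from 1.25 for Sox21 to 1.72 for Sox12, while Sox15 is at 0.78 and Sox9 at 0.57.

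Sox2 (chr3:34650405-34652461, plus strand, GRCm38) is a gene with a single exon inside the longer noncoding gene Sox2ot on the same strand. Its UQRPKM was 1521, 2246 and 1615 in the control libraries, 1079, 1066 and 1319 in Foxj3-ES, with 1168, 1264 and 1173 in Zbtb18-ES. Each line was below every control, and the lines overlapped each other. The Foxj3-ES mean was 0.644 of the control mean, a log2 fold change of -0.62 (SE 0.16, adjusted p = 0.0321), so that Sox2 fell in this line, and in Zbtb18-ES the ratio was 0.670 and the log2 fold change -0.56 (SE 0.16, adjusted p = 0.0539). The Foxj3-ES call ended without Control replicate 2 (-0.45, adjusted p = 0.0503), Control replicate 3 (0.0595), Foxj3-ES replicate 1 (0.1) or Foxj3-ES replicate 2 (0.0944). After the GC correction Sox2 was at -0.67 in Foxj3-ES (adjusted p = 0.0108) and at -0.59 in Zbtb18-ES (adjusted p = 0.0218). Sox2ot stood at 2.60 to 8.89 UQRPKM, far below Sox2, and passed in neither line.

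Pou5f1, which encodes the Oct4 partner of Sox2, gives a ratio within each library. Sox2 was 11.1, 15.9 and 12.2% of Pou5f1 in the control libraries, 6.05, 6.02 and 7.22% in Foxj3-ES, with 6.50, 7.48 and 5.62% in Zbtb18-ES. This ratio does not depend on how libraries are scaled, and both lines lay below every control. The ratio of geometric means was 0.496 in Foxj3-ES and 0.502 in Zbtb18-ES (two-sided exact permutation test, p = 0.1 for each, the smallest p that 3 libraries against 3 allow). For Pou5f1 itself the log2 fold change was 0.39 in Foxj3-ES (adjusted p = 0.144) and 0.44 in Zbtb18-ES (0.116), so the ratio combines a lower Sox2 and a Pou5f1 that was higher in every line library without passing the test. The pair was chosen after its values were seen.

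**Figure D3:**
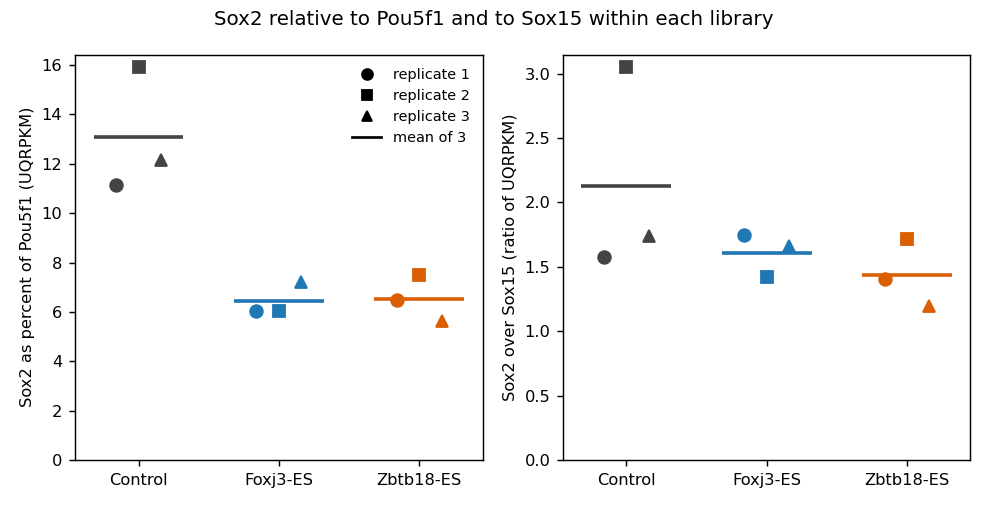
Sox2 as percent of Pou5f1 (left) and Sox2 over Sox15 (right), both ratios of UQRPKM within a library, for each replicate of control, Foxj3-ES and Zbtb18-ES with a line at the mean of 3. On the left the lines stand at 5.62 to 7.48% and the controls at 11.1 to 15.9%; on the right the 3 groups overlap, and Control replicate 2 is at 3.05.

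Sox1 (chr8:12395295-12400126, plus strand), a single-exon gene that marks the early neural plate, had the largest fold change among the tested members. Its UQRPKM was 28.0, 41.0 and 23.2 in control, 21.5, 2.95 and 2.96 in Foxj3-ES, with 3.35, 4.02 and 6.06 in Zbtb18-ES. Foxj3-ES replicate 1 was close to the lowest control, whereas the other line libraries were far below, and these values correspond to about 108.5 to 169 reads in control, 65, 10 and 11 in Foxj3-ES, with 14, 19 and 22 in Zbtb18-ES. Sox1 fell by 2.13 in Foxj3-ES (SE 0.62, adjusted p = 0.0459) and fell by 2.53 in Zbtb18-ES (SE 0.62, adjusted p = 0.0283). The Foxj3-ES call passed in 7 of 22 alternatives and was lost without any 1 library except Foxj3-ES replicate 1 (adjusted p from 0.0578 to 0.129), and without that replicate the value was -2.96 (adjusted p = 0.00569). The GC correction brought it to -1.81 (adjusted p = 0.0843). The Zbtb18-ES call was lost without any 1 of the control or Zbtb18-ES libraries (0.0581 to 0.0843) and after the GC correction (-2.13, adjusted p = 0.0595).

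Sox3 (chrX:60891366-60893430, minus strand), the X-linked SoxB1 gene, has a transcript GC content of 66.4%, above 99.7% of mRNAs. Its UQRPKM was 7.24, 15.2 and 15.0 in control, 5.81, 5.77 and 4.21 in Foxj3-ES, with 3.28, 2.07 and 1.61 in Zbtb18-ES, which rests on about 16, 32 and 36 reads, 9, 10 and 8 reads, and 7, 5 and 3 reads. The 3 groups did not overlap, with Zbtb18-ES lowest. Sox3 fell by 1.99 in Zbtb18-ES (SE 0.40, adjusted p = 0.0138), together with a log2 fold change of -1.05 for Foxj3-ES (SE 0.40, adjusted p = 0.106). The Zbtb18-ES call ended without Control replicate 3 (adjusted p = 0.0527), and after the GC correction, which brought the value to -1.14 (adjusted p = 0.0649).

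Sox21 (chr14:118233232-118237030, minus strand), the SoxB2 gene of the set, stood at 18.3, 23.4 and 19.3 UQRPKM in control, at 2.81, 7.21 and 10.9 in Foxj3-ES and at 9.41, 7.65 and 7.31 in Zbtb18-ES. Neither line reached the lowest control, and Foxj3-ES spread over a wider range than Zbtb18-ES. Sox21 fell by 1.56 in Foxj3-ES (SE 0.42, adjusted p = 0.0326) with a log2 fold change of -1.23 in Zbtb18-ES (SE 0.42, adjusted p = 0.0848). After the GC correction the Foxj3-ES value was -1.23 (adjusted p = 0.0428), and the call was lost when a replicate block was added to the correction. The correction brought the Zbtb18-ES value to -0.78, which was not called. The Foxj3-ES call ended without any 1 of the controls, or without Foxj3-ES replicate 1 or 2 (adjusted p from 0.058 to 0.0831). In Zbtb18-ES, Sox21 passed in 4 of 22 alternatives, among them the fit without Foxj3-ES replicate 1 (adjusted p = 0.0322). Sox21 overlaps the noncoding gene Gm4675 on the opposite strand, as Sox4 overlaps Gm26735, and Sox1 lies within Sox1ot on the same strand, so reads of these pairs may not be separable.

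Sox12 (chr2:152393611-152398063, minus strand), the most abundant SoxC gene here, fell in both lines. Its UQRPKM was 123, 211 and 123 in control, 70.9, 77.8 and 74.9 in Foxj3-ES, with 59.2, 47.8 and 63.9 in Zbtb18-ES, and the 3 groups did not overlap. The Foxj3-ES libraries were close together (mean 74.5 ± 3.46, SD, n = 3), and the control spread (152 ± 51.0, SD, n = 3) came from Control replicate 2. Sox12 fell by 0.97 in Foxj3-ES (SE 0.23, adjusted p = 0.020), to 0.490 of the control mean, and by 1.36 in Zbtb18-ES (SE 0.23, adjusted p = 0.00684), to 0.374 of it. In Zbtb18-ES it passed in all 22 alternatives, with adjusted p up to 0.0401, and was the only member to do so in either line. In Foxj3-ES it passed in 19 of 22, and was lost without Foxj3-ES replicate 1 (adjusted p = 0.0631) and after the GC correction, alone (-0.54, adjusted p = 0.0549) or with a replicate block (0.0927). The correction brought the Zbtb18-ES value to -0.78 (adjusted p = 0.0183).

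Sox4 (chr13:28948919-28953713, minus strand) and Sox11 (chr12:27334264-27342574, minus strand), the other SoxC genes, both have a single exon. Sox4 stood at 38.1, 58.0 and 34.0 UQRPKM in control, at 19.8, 32.5 and 29.5 in Foxj3-ES and at 12.4, 16.4 and 24.7 in Zbtb18-ES. Each line lay below the controls, and the highest Foxj3-ES library was close to the lowest control. Sox4 fell by 1.25 in Zbtb18-ES (SE 0.33, adjusted p = 0.0365, and -1.08 with 0.0376 after the GC correction) against a log2 fold change of -0.64 for Foxj3-ES (SE 0.33, adjusted p = 0.223). The Zbtb18-ES call ended without any 1 of the controls, or without Zbtb18-ES replicate 1 or 2 (adjusted p from 0.0596 to 0.11). Sox11 stood at 23.9, 36.1 and 28.7 in control, at 24.6, 30.7 and 25.7 in Foxj3-ES and at 10.3, 23.4 and 18.7 in Zbtb18-ES. Foxj3-ES overlapped control, and every Zbtb18-ES library was just below the lowest control or further down. Sox11 passed in neither line, with log2 fold changes of -0.11 (95% interval -0.82 to 0.60, adjusted p = 0.857) and -0.78 (95% interval -1.49 to -0.07, adjusted p = 0.143).

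Sox13 (chr1:133382303-133424377, minus strand), with 14 exons, was the highest member after Sox2 and Sox15. Its UQRPKM was 144, 226 and 155 in control, 73.2, 128 and 115 in Foxj3-ES, with 76.0, 90.8 and 87.9 in Zbtb18-ES, and neither line reached the lowest control. Sox13 fell by 1.01 in Zbtb18-ES (SE 0.24, adjusted p = 0.0254), to 0.486 of the control mean, against a log2 fold change of -0.73 for Foxj3-ES (SE 0.24, adjusted p = 0.0693). The transcript has a GC content of 60.8%, and after the GC correction the Zbtb18-ES value was -0.41 (adjusted p = 0.143) and the Foxj3-ES value -0.30 (adjusted p = 0.25). The Zbtb18-ES call ended without Control replicate 2 (-0.81, adjusted p = 0.0669), Control replicate 3 (0.0541), Zbtb18-ES replicate 1 (0.0785) or Zbtb18-ES replicate 3 (0.0659).

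Sox15 (chr11:69655314-69656727, plus strand) passed the test in neither line, and its control and line libraries overlapped. Its UQRPKM was 963, 735 and 929 in control, 619, 751 and 793 in Foxj3-ES, with 832, 738 and 980.3 in Zbtb18-ES. Control replicate 2 was the lowest control here, although the transcript has a GC content of 58.9%. Its log2 fold changes were -0.28 in Foxj3-ES (95% interval -0.64 to 0.08, adjusted p = 0.282) and -0.04 in Zbtb18-ES (95% interval -0.40 to 0.32, adjusted p = 0.90). The ratio of Sox2 to Sox15 was 1.58, 3.05 and 1.74 in control, 1.74, 1.42 and 1.66 in Foxj3-ES, with 1.40, 1.71 and 1.20 in Zbtb18-ES. This ratio did not separate Foxj3-ES from control (two-sided exact permutation test, p = 0.5) or Zbtb18-ES from control (p = 0.2). Sox15 overlaps Mpdu1 on the opposite strand, and the sources used here do not say whether counting used strand, so reads of the pair may not be separable.

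Sox9 (chr11:112782224-112787760, plus strand) was near the limit of detection. Its UQRPKM was 0, 0.236 and 0.832 in control, 2.25, 1.15 and 0.787 in Foxj3-ES, with 0, 0.618 and 0.268 in Zbtb18-ES. It reached 1 in only 2 libraries, both of Foxj3-ES. In units of the smallest step between values, taken here as the worth of a read or of part of a read, these were 0, 1 and 4, 7, 4 and 3, and 0, 3 and 1. Each Foxj3-ES library was above each Zbtb18-ES library, Foxj3-ES overlapped control, and no difference can be read at so few reads.

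**Figure D4:**
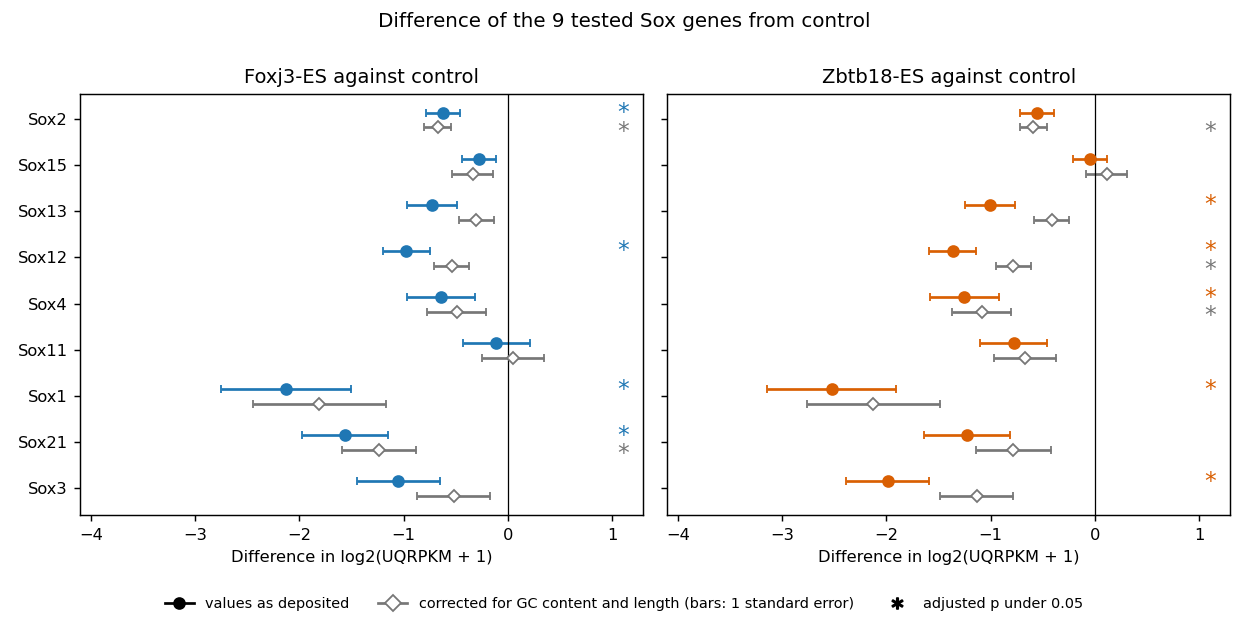
Difference in log2(UQRPKM + 1) from control for the 9 tested Sox genes in Foxj3-ES (left) and Zbtb18-ES (right), as deposited (filled circles) and after the GC correction (open diamonds), with bars of 1 standard error and stars at an adjusted p under 0.05. Filled circles lie at or left of 0 for all 9 genes in both lines, and the correction moved 7 of the 9 closer to 0 in each.

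Between the lines, no member was called. In Zbtb18-ES against Foxj3-ES 0 of the 9 tested members passed in limma, compared with 0.687% of all tested genes called in either direction, and 1 of the 9 (Sox3) had an unadjusted p under 0.05. The median log2 difference of the members was -0.39. Sox3 was at -0.94 (95% interval -1.82 to -0.05, adjusted p = 0.281), Sox11 at -0.67 (-1.38 to 0.04, adjusted p = 0.341) and Sox12 at -0.39 (-0.90 to 0.12, adjusted p = 0.432). For these tested members every Zbtb18-ES library was below every Foxj3-ES library. The share of all tested genes that did so was not counted, so this separation cannot be read as a trait of the members. Sox2 was at 0.06 (-0.30 to 0.43) and Sox15 at 0.24 (-0.12 to 0.60). A member called in one line alone, such as Sox4 in Zbtb18-ES or Sox21 in Foxj3-ES, was therefore not shown to differ between the lines.

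**Figure D5:**
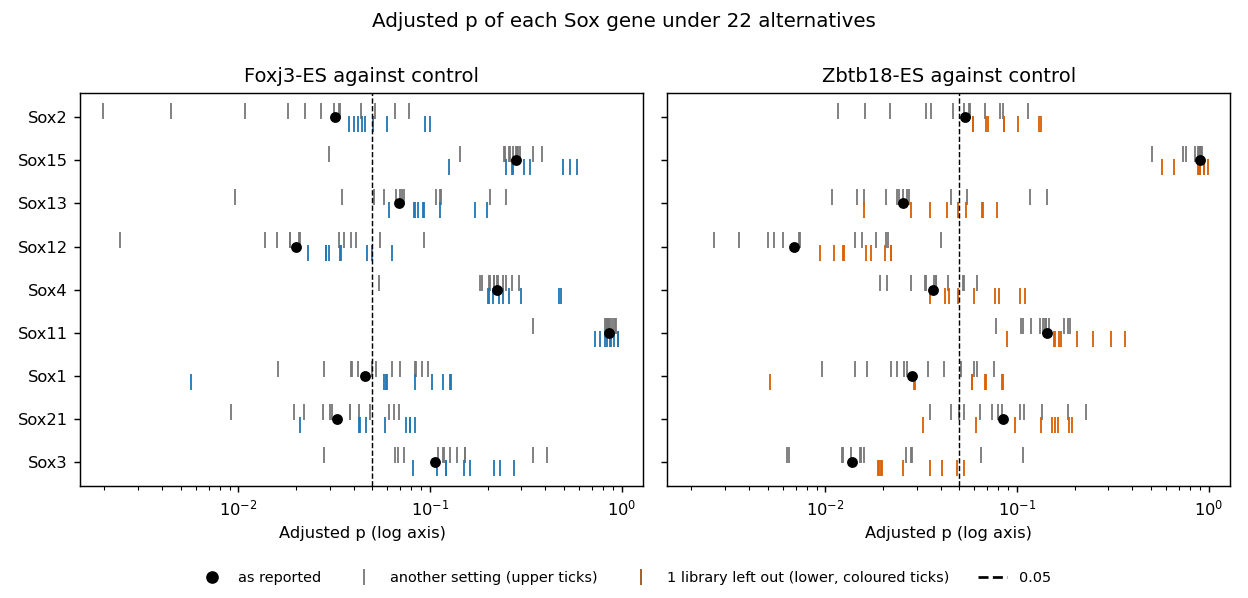
Adjusted p (log axis) of each tested Sox gene in Foxj3-ES (left) and Zbtb18-ES (right), as reported (black point), under 13 other settings (grey ticks) and with each of 9 libraries left out in turn (coloured ticks), with a dashed line at 0.05. Only Sox12 in Zbtb18-ES keeps every tick left of the line, while every other called gene has ticks on both sides in the line where it was called, Sox12 in Foxj3-ES included.

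The table holds 10 further Sox genes, of which 6 passed the filter. Among these 6, 0 were called in Foxj3-ES and 1 fell in Zbtb18-ES, where 7.01% and 6.50% of all tested genes fell. The gene that fell was Sox18, a SoxF regulator of vessels and lymphatics, with 8.08, 10.3 and 8.52 UQRPKM in control and 0, 2.21 and 6.71 in Foxj3-ES. It was listed at 0 in all 3 Zbtb18-ES libraries (adjusted p = 0.0123), and the adjusted p for Foxj3-ES was 0.0928. Its fall passed in all 22 alternatives (adjusted p up to 0.0403), but the control values were only 14, 17 and 16 steps of the smallest unit. Sox7, Sox8, Sox10, Sox17 and Sox30 passed in neither line. Sox5, Sox6 and Sox14 stayed under the filter, and Sry was at 0 throughout.

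Genes that work with Sox factors were read from 3 lists, chosen with earlier results of these data known. For all tested genes, the share that fell was 7.01% (Foxj3-ES) and 6.50% (Zbtb18-ES), and the median was -0.03 and -0.02. Of 10 partners and targets of Sox2 and Oct4 in ESCs, 5 fell in each line, with median log2 fold changes of -0.81 and -0.81. Nanog, a pluripotency factor gene bound by Sox2 and Oct4, fell by 1.50 and 0.93 (adjusted p = 0.00117 and 0.0110), and Klf4, another factor of the naive ESC, fell by 2.02 and 1.59 (0.000125 and 0.000493), and all 4 calls passed in the 22 alternatives. Sall4 and Lefty1 also fell in both lines, Esrrb fell in Foxj3-ES and Utf1 in Zbtb18-ES, whereas Pou5f1, Fgf4, Fbxo15 and Dppa4 passed in neither. Their directions differed (log2 fold changes for Foxj3-ES, then Zbtb18-ES). Pou5f1 was at 0.39 and 0.44, Dppa4 at 0.36 and 0.06, Fgf4 at -0.40 and -0.42, and Fbxo15 at -0.64 and 0.37. Without Foxj3-ES replicate 1, Sall4 (adjusted p = 0.059) and Esrrb (0.0673) no longer passed in that line, nor did Sall4 in Zbtb18-ES without Zbtb18-ES replicate 1 (0.0509) or Lefty1 without Zbtb18-ES replicate 3 (0.0524), and Utf1 was lost without Zbtb18-ES replicate 1 or 3 (0.0718 and 0.0802) and after the GC correction (0.0918). Of 6 tested POU and neural partners, Notch1, a receptor of neural progenitors, fell by 1.06 and 0.98 in Foxj3-ES and Zbtb18-ES, and Pou3f1, a POU factor of the epiblast, fell by 1.73 in Zbtb18-ES (adjusted p = 0.0053), though after the GC correction Pou3f1 was at -0.92 (0.073). Notch1 no longer passed without Foxj3-ES replicate 1 (0.0564), or in Zbtb18-ES without any 1 of its own libraries (0.0527 to 0.0681). Of 8 tested SoxE and SoxC targets, 0 passed in Foxj3-ES and 3 fell in Zbtb18-ES: Tead2, a factor of the Hippo pathway, by 1.31, Tubb3, the neuronal tubulin, by 1.33, and Acan, the cartilage aggrecan, by 1.23. Tead2 and Tubb3 passed in all 22 alternatives, and Acan in 15, being lost without Control replicate 1 or 2 or any 1 Zbtb18-ES library (0.0504 to 0.0922). Other targets of this list went up without passing. Stmn1 had means of 1022 in control, 1567 in Foxj3-ES and 1831 in Zbtb18-ES (adjusted p = 0.101 and 0.0517). Comp stood at 6.04 in control, 17.2 in Foxj3-ES (adjusted p = 0.119) and 5.89 in Zbtb18-ES. Every line library was above every control for Stmn1 in both lines and for Comp in Foxj3-ES. Dcx, another SoxC target, was at 0 in every library.

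Over the 9 libraries and 11835 candidate genes, the genes most like the SoxB1 members were listed by Pearson's r of log2 values, as a description. For Sox2 these were Mark2 (r = 0.992) and Tpst2 (0.988), for Sox1 Paqr3 (0.971), Rprd1b (0.958) and Fuk (0.954), and for Sox3 Gdf1 and Cers1 (0.984 each) and Zscan5b (0.973). Gdf1 and Cers1 are known to share a transcript, and their values were nearly the same. All points share the 9 libraries, their groups and the GC difference of Control replicate 2.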

How the data were processed

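RNA of 9 libraries was sequenced on an Ion Proton, with 3 libraries in each of the groups control, Foxj3-ES and Zbtb18-ES. The authors deposited RPKM per gene, divided by an upper quartile of the library (UQRPKM). The submitters' processing notes name mm10 and DESeq without versions, and for the aligner, the counter and the annotation the entry is: not given in the sources used here. Differences are therefore relative to the upper quartile. On log2(UQRPKM + 1), limma 3.58.1 (R 4.3.3) with a mean-dependent spread was run for 22268 genes, all 9 libraries together and without a replicate block, with Benjamini-Hochberg adjustment, and each adjusted p in the text comes from it or, where an alternative is named, from limma under that alternative. No count test was used.

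Reads behind low values were estimated from the steps between values and RefSeq lengths, within a tolerance of 0.01, and 86.2% of 5255 genes of low mean had a common step. GC content came from GENCODE M21 (GRCm38) transcripts. The GC correction took out lowess curves (span 0.3), first on GC content and then on log2 length, library by library. Each curve was fitted to the deviations of genes from their means over the 9 libraries. Differences between groups that follow GC content or length may therefore be taken out too. The alternatives were other pseudocounts, filters, scalings, spread models, a replicate block, this correction and each library left out. The named genes were all members, the genes of the lists, and the 3 genes most like each SoxB1 member, of which 1 is not reported here. The members and lists were chosen with earlier results of these data known. The fit was tested on simulated data. Tables and plots were made in Python 3.11.15.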

Additional observations from a re-analysis of the deposited data

How the results depend on the processing

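Of 351 fold changes of members under settings other than leaving out a library, 307 kept their direction and their side of the threshold, 27 no longer passed, 13 newly passed and 4 changed sign. The count of members called in Foxj3-ES was 4, and became 1 with no filter on low values, 1 with only the 2 groups compared, 2 with no trend of the spread, 2 with the correction for GC content and length, 1 with that correction and a replicate block, and 7 with libraries rescaled to the same sum. The count in Zbtb18-ES was 5, and became 3 with no filter, 2 with no trend, 3 with the correction, 3 with the correction and the block, and 7 with libraries rescaled to the same sum. Leaving out 1 library gave 1 to 3 members in Foxj3-ES, 1 to 6 in Zbtb18-ES and 0 between the lines. Rescaling to the same sum moved the median over all genes from near 0 to -0.35 (Foxj3-ES) and -0.16 (Zbtb18-ES). Before this step the summed UQRPKM of a control library was between 6229486 and 6874835. Every line library had a higher sum, with 8086199 to 8416870 for Foxj3-ES, while the Zbtb18-ES line ranged from 7054409 up to 7449341. Setting the sums equal therefore lowers the line libraries relative to control. Why the sums differed was not tested, nor was the cause of the moves under the other settings. With a replicate block alone the counts stayed at 4 and 5, with Sox13 (adjusted p = 0.0349) in place of Sox1 (0.0633) in Foxj3-ES. Same-numbered libraries did not deviate together (correlations from -0.05 to 0.08), so no shared effect of the number was seen. This does not tell whether the libraries were prepared as sets.

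Signs changed in the following cases, in none of which the value was called. Sox11 in Foxj3-ES was 0.044 with the correction, with or without the block, and ranged from -0.25 to 0.038 when 1 library was left out, with the positive value without Control replicate 2. Sox15 in Zbtb18-ES was 0.11 with the correction, with or without the block, and -0.16 to 0.054 when 1 library was left out, positive when the library was Control replicate 1, Control replicate 3 or Zbtb18-ES replicate 2. Between the lines, Sox1 ranged from -0.82 to 0.44 and Sox21 from -0.12 to 0.70 when 1 library was left out, both changing sign without Foxj3-ES replicate 1. At the depth of these libraries Sox9, Sox18 and the lower values of Sox3 rested on few reads.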
